A study of Mus musculus with 36 samples.

Results

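The collagen genes are the genes whose symbol has the form of a collagen chain, Col followed by the type number, the letter a and the chain number. Among 18193 genes with a probe set annotated to their symbol alone, 42 had such a symbol, and the probe set brightest on average across the 36 arrays stood for each. Of the 42 genes, 27 had more than 1 probe set. These 42 genes comprised 7 fibrillar chains, 8 chains of cartilage collagens, 8 of basement membranes, 8 of network and filament collagens, 6 fibril-associated chains outside cartilage, 4 transmembrane chains and Col26a1. A probe set was tested when its intensity was above 171.8, the overall median, on 3 or more arrays, as it was for 33 of the 42 collagen genes. Of these 33, 20 had all 12 group means above that value and 13 did not. The 9 left untested were Col24a1, Col10a1, Col11a2, Col9a2, Col4a4, Col6a5, Col19a1, Col20a1 and Col17a1.

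RNA came from embryos of timed matings of the inbred mouse strain C57BL/6, with no genetic change or treatment in any group. At embryonic day (E) 10.5 and E11.5 the sample was described both as whole heart and as the middle of the embryo with the heart in it, and it is called the heart region here. The later hearts, taken at 5 ages from E12.5 to E18.5 (the others being E13.5, E14.5 and E16.5), were isolated and divided into atria and both ventricles, which gave 12 groups of 3 arrays. The 6 arrays of E16.5 bear that day in the title and E15.5 in the description, and the title was followed. Nothing in the labels tells if a group's 3 arrays stem from separate embryos or litters, so that p-values measure only the spread between these samples, which may be technical. The comparisons ask how atria differ from ventricles as the chambers septate, and how each chamber changes as it matures.

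Collagens are proteins of 3 chains wound into a triple helix, made and modified inside the cell and assembled outside it. Fibrillar collagens form the rope-like fibrils that bear tension, and in the heart they are made chiefly by fibroblasts. Type IV collagen forms the sheet of the basement membrane around muscle cells and under endothelium, and cartilage collagens such as type II are also made by the endocardial cushions from which valves arise.

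Promoters are printed for 2 sets of genes whose values carry the results: the adjacent type IV genes Col4a5 and Col4a6, both higher in atria, and the 3 type VI chains, which rose together with age. Of the 42 genes, 33 had an entry in the RefSeq promoter table for the mouse build GRCm38.p6. Each line gives the 200 bases that end just before the outermost annotated start of the gene, 5′ to 3′ on the gene's strand. Col4a5 lies at chrX:141475170-141475369, plus strand, and Col4a6 at chrX:141474096-141474295, minus strand. Col6a1 lies at chr10:76726045-76726244, minus strand, Col6a2 at chr10:76623631-76623830, minus strand, and Col6a3 at chr1:90844002-90844201, minus strand. Capitals mark 3 promoter elements searched for on either strand, which are the CCAAT box, the GC box with the letters GGGCGG, and the TATA box with the letters TATAAA.
Col4a5: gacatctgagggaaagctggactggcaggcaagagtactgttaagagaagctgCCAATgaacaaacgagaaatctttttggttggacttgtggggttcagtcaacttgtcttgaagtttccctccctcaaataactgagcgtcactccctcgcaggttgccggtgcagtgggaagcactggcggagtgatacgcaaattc
Col4a6: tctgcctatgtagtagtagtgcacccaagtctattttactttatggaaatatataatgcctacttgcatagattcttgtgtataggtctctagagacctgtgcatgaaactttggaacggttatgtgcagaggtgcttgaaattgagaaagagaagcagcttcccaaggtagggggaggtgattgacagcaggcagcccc
Col6a1: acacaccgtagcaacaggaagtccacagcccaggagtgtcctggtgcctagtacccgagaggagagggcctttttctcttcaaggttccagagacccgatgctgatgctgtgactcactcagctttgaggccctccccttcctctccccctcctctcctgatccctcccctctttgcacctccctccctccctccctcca
Col6a2: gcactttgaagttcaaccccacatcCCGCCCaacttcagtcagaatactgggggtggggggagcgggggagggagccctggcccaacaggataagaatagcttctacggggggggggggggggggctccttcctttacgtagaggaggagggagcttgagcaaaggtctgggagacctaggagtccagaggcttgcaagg
Col6a3: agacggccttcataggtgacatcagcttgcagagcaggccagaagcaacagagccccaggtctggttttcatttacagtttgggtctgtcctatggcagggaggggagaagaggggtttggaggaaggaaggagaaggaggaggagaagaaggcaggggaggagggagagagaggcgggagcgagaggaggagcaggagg

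The 2 type IV starts face away from each other and are 1275 bases apart. The window of Col4a5 held 1 CCAAT box and that of Col6a2 held 1 GC box, whereas the other 3 windows held none of the 3. Over the last 200 bases before the start in 32851 promoters of the table, 29.3% held a CCAAT box, 31.0% a GC box and 9.96% a TATA box. Col4a1 and Col4a2 are also neighbours on opposite strands, and their annotated 5′ ends overlap by 85 bases. Col6a1 and Col6a2, Col3a1 and Col5a2, Col4a3 and Col4a4, Col9a1 and Col19a1, and Col6a4 and Col6a5 were the other neighbouring pairs of collagen genes.

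Values are intensities on a linear scale, deposited with the same trimmed mean on each array, and having 3 arrays per group limits how precise a mean can be. Differences are given on the scale of log2(intensity + 17), which understates the change of dim genes. When the 5 ages were averaged, all 4 ventricular muscle genes checked were lower in atria than in ventricles (limma, adjusted p below 0.05). Taken singly, E14.5 had none of these genes lower by that test, while E12.5 and E18.5 had 3 each. All 4 genes were lower at each of the remaining ages. Their summed intensity ranged from 4231 to 24504 in the E12.5 atria and from 10816 to 39897 in the E14.5 atria, against 34512 to 45286 and 34508 to 55428 in the ventricles of these ages. Irx4 exceeded 300 on 5 atrial arrays, which were array 2 of E12.5, arrays 1 and 2 of E14.5, array 2 of E16.5 and array 1 of E18.5. Sftpc, a gene of lung epithelium, was above 1000 on atrial array 3 of E13.5, E16.5 and E18.5, at 1745, 5694 and 10949. Alb, a liver gene, was highest on atrial array 2 of E12.5 and ventricular array 2 of E16.5, at 6352 and 4237. Counts that moved most on leaving out these arrays are given with and without them, as are the results of some single genes. Among the 3 arrays of the E18.5 ventricles, atrial muscle genes were highest on array 1. In this group Sln read 1789, 72.3 and 15.5 on the 3 arrays, Myl7 9135, 4792 and 4227, and Mybphl 298, 124 and 141. That ventricular array was left out only in the fits without 1 array.

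Averaged over the 5 ages, collagen genes were more often higher in atria than in ventricles. Of the 33 tested, 16 were higher and 4 lower at an adjusted p below 0.05 (limma, Benjamini-Hochberg over 27256 probe sets), against 20.9% higher, 21.5% lower and 42.4% in either direction among all probe sets tested. The median log2 difference of the collagen genes was 0.21, beside -0.01 for all probe sets. By class, 4 of 6 fibrillar genes were higher and 1 lower, with a median of 0.29. All 3 transmembrane genes were higher (median 0.56), as were 3 of 7 network and filament genes (0.28), 2 of 4 fibril-associated genes (0.19) and 1 of 5 cartilage genes (0.11). Basement membrane genes were divided, with 3 higher and 3 lower among 7 (median 0.06). In such whole-tissue RNA, fewer cells of a type and less RNA per cell cannot be told apart. Without the 5 atrial arrays with high Irx4, 13 were higher and 4 lower; without the 3 with high Sftpc, 15 and 4.

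At single ages 2 collagen genes were called at E12.5, then 7 and 6 on the next 2 days, and 11 at both E16.5 and E18.5. At E12.5, 2 collagen genes were lower in atria (5.27% of all probe sets were lower) and none was called higher by limma (4.40% of all, and 4 collagen genes at an unadjusted p below 0.05), with 9.67% of all called in either direction. At E13.5, 6 were higher and 1 lower, beside 5.87%, 6.27% and in either direction 12.1% of all. At E14.5, 6 were higher (3.80% of all) and none was called lower (2.38% of all, 6.18% in either direction, and 2 collagen genes at an unadjusted p below 0.05 in limma). At E16.5, 9 were higher and 2 lower, against 8.55%, 8.32% and in either direction 16.9%. At E18.5, 10 were higher and 1 lower, against 11.0%, 8.53% and in either direction 19.5%. The E12.5 count of 2 became 4 without atrial array 1. The E13.5 count of 7 fell to 2 without the atrial arrays with high Sftpc and to 4 without the pair with high Alb; of single arrays of that age, it was 3 and 2 without atrial array 2 or 3, and 4, 4 and 2 without ventricular array 1, 2 or 3. Without the atrial arrays with high Irx4, the E14.5 count of 6 fell to 3 and the E16.5 count of 11 to 7. The E14.5 count was also 3 and 2 without atrial array 1 or 3, and 2 and 3 without ventricular array 1 or 3.

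With age, from E12.5 to E18.5, the family split. In the ventricles 10 collagen genes rose and 13 fell, where 12.7% and 16.0% of all probe sets did, 28.7% in all. The median log2 difference was -0.23, beside -0.05 for all probe sets. In the atria 12 rose and 5 fell, where 12.6% and 11.7% of all did, 24.3% in all, with a median of 0.25 beside 0.01. Fibrillar genes rose in both chambers (5 of 6 in the ventricles, where Col5a2 fell, and 3 of 6 in the atria), whereas all 3 transmembrane genes and 2 of 5 cartilage genes fell in the ventricles. The change in atria minus the change in ventricles was called for 8 collagen genes, each towards higher values in the atria, where 2.66% of all probe sets differed that way, 1.12% the other way and 3.78% in all. None differed towards the ventricles in limma, and 1 did at an unadjusted p below 0.05. Those 8 were Col5a2, Col18a1, Col4a5, Col12a1, Col16a1, Col13a1, Col23a1 and Col25a1, with a median over all 33 of 0.41 beside 0.05 for all probe sets. Without the arrays with high Sftpc 4 collagen genes were called, whereas 8 were without those with high Irx4 and also without the pair with high Alb. Of single arrays, the count became 2 without array 1 of the E12.5 atria, 4 without array 1 of the E12.5 ventricles or array 2 or 3 of the E18.5 atria, and 5 without array 2 or 3 of the E18.5 ventricles.

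Centring each array on its own median moved all differences by -0.135 at E13.5, 0.11 at E16.5 and -0.109 for the difference in change, and by less than 0.1 elsewhere. With it the called collagen genes were 2 higher and 2 lower at E13.5, 6 and 0 at E14.5, 11 and 2 at E16.5, 10 and 11 for age in the ventricles, and 3 and 0 for the difference in change. Among all called probe sets the share that was higher moved with centring from 45.5% to 59.0% at E12.5, from 48.3% to 25.5% at E13.5, from 61.5% to 82.3% at E14.5 and from 50.7% to 73.1% at E16.5. It moved from 44.3% to 56.4% for age in the ventricles and from 70.3% to 59.3% for the difference in change.

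**Figure D1:**
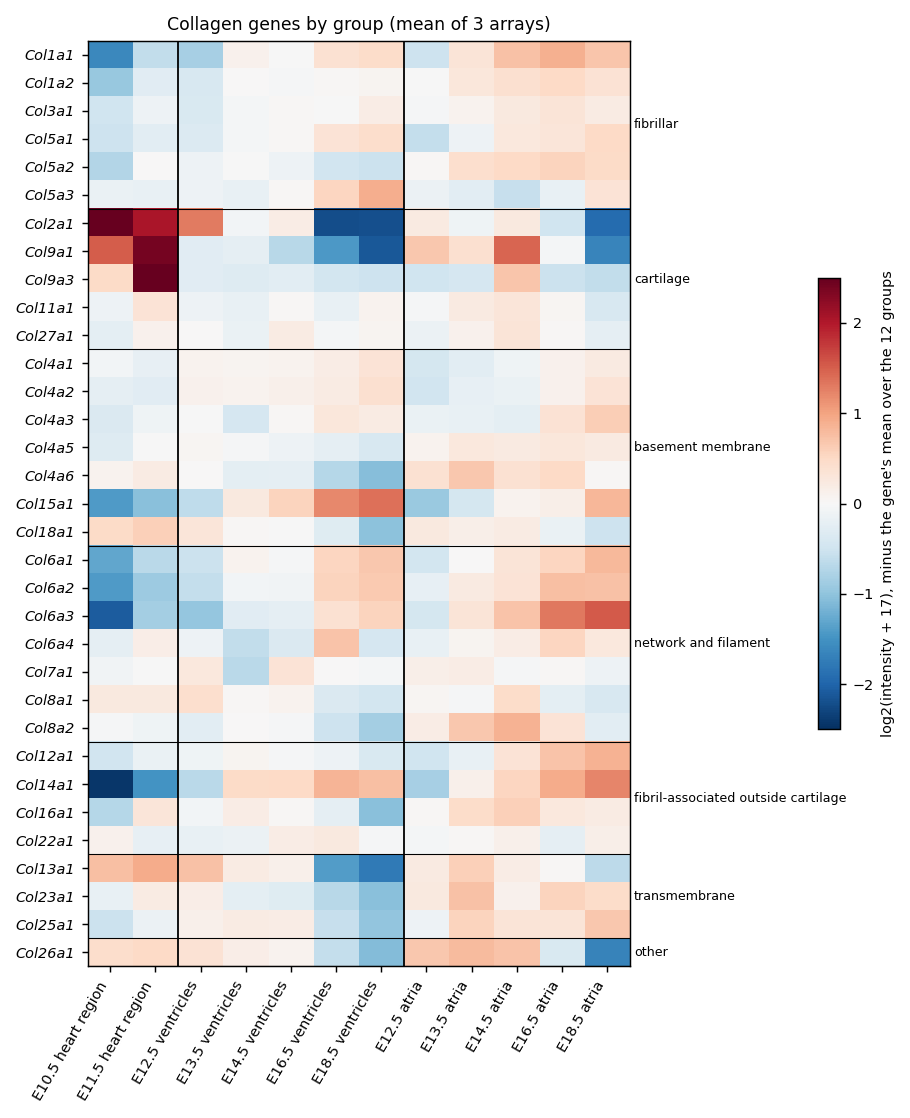
Group means of log2(intensity + 17) of the 33 tested collagen genes, each minus the gene's own mean over the 12 groups, with colour from blue (low) to red (high) and saturating at 2.5 on either side. Col1a1, Col6a1, Col6a2, Col6a3, Col14a1 and Col15a1 turn from blue to red with age, while Col2a1, Col9a1 and Col26a1 turn the other way.

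**Figure D2:**
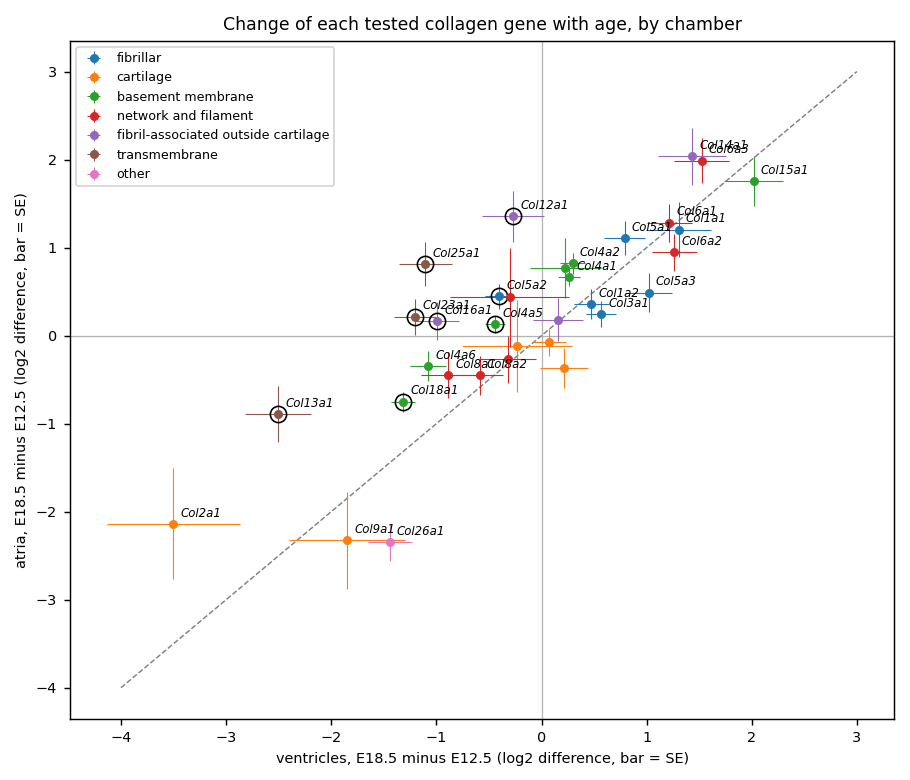
Log2 difference of E18.5 against E12.5 in the ventricles (horizontal) and in the atria (vertical) for each of the 33 tested collagen genes, coloured by class, with SE bars, a dashed line of equal change, names for genes called in a chamber and a ring on the 8 genes whose change differed between chambers. The ringed genes all lie above the dashed line, with Col25a1 at 1.92, Col12a1 at 1.63 and Col13a1 at 1.61 farthest from it.

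Among fibrillar collagens, Col1a1 and Col1a2, the 2 chains of type I, and Col3a1, the single chain of type III, were higher in atria over the 5 ages and rose with age in the ventricles. Type I makes up most of the heart's fibrils and type III runs with it. The alpha 1 chain of type I, Col1a1, read 1892, 4075 and 1270.1 in the E12.5 ventricles and 5848, 5473 and 4698 in those of E18.5. In the atria it read 1512, 2889.5 and 4433 at E12.5 and 6014, 6490.1 and 6152 at E18.5. The groups of each chamber did not overlap, and the log2 difference was 1.31 (SE 0.31, adjusted p = 0.00191) in the ventricles and 1.20 (SE 0.31, adjusted p = 0.00471) in the atria. Without atrial array 1 of E12.5 the latter was 0.79 (adjusted p = 0.0825). A second probe set of Col1a1, with lower signal, gave 0.25 (adjusted p = 0.359) and 0.26 (adjusted p = 0.34), neither called. Over the 5 ages Col1a1 was higher in atria by 0.40 (SE 0.14, adjusted p = 0.0197).

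The partner chain Col1a2 ranged from 5295 to 9295 over the 15 ventricular arrays, with a median of 7885. Over the 15 atrial arrays it ranged from 5852 to 13920.2, with a median of 10089.6. The chambers overlapped at E12.5 and E13.5 and were apart, with atria higher, at E14.5, E16.5 and E18.5, and the difference averaged over ages was 0.37 (SE 0.07, adjusted p = 0.000192). Col3a1 ranged from 7088 to 12496 (median 10065) in ventricles and from 9213 to 15585 (median 11244) in atria. Its difference of 0.21 (adjusted p = 0.0102) was smaller than the 0.70 (adjusted p = 3.66e-07) of its second, less bright probe set. The chosen probe set lay near the top of the scale. Only 0.439% of probe sets had a higher mean, and the highest value of an array ranged from 12532 to 26432. Whether differences are compressed there was not tested. Without the atrial arrays with high Irx4, the atrial excess was 0.31 (adjusted p = 0.141) for Col1a1 and 0.15 (adjusted p = 0.0956) for Col3a1. In the ventricles Col3a1 rose by 0.57 (adjusted p = 0.00342) and Col1a2 by 0.47 (adjusted p = 0.0317). The call of Col1a2 ended without array 1 or 3 of E12.5 or array 1 or 2 of E18.5, with log2 differences from 0.38 to 0.46 and adjusted p from 0.0812 to 0.154. In the atria the differences of 0.36 (adjusted p = 0.12) for Col1a2 and 0.25 (adjusted p = 0.223) for Col3a1 did not pass the test.

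Type V collagen nucleates the fibrils, and its 3 chains took 3 different courses. Col5a1 rose in both chambers, from 2424, 2957 and 1861 to 4157, 4116 and 4068 in ventricles and from 1599, 1913 and 2572 to 4315, 4290.1 and 4292 in atria. The E18.5 arrays lay above every E12.5 array of their chamber, with log2 differences of 0.79 (SE 0.19, adjusted p = 0.00238) and 1.11 (SE 0.19, adjusted p = 0.000125). Atria and ventricles did not differ detectably in Col5a1 over the 5 ages, at -0.02 with a 95% interval of -0.19 to 0.16, whereas its second probe set was called higher at 0.19 (adjusted p = 0.0232). Col5a2 read 3887, 4121 and 3576 in the E12.5 ventricles and 2989.8, 3148 and 2626 in those of E18.5. In atria it read 3119.6, 4658 and 5543 at E12.5, and 5655, 5779 and 6263 at E18.5. From E13.5 on every atrial array exceeded every ventricular array of its age.

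Col5a2 was higher in atria by 1.05 (SE 0.14, adjusted p = 3.72e-06) at E16.5 and by 1.01 (SE 0.14, adjusted p = 4.11e-06) at E18.5, and the E13.5 difference of 0.42 (adjusted p = 0.0422) and the E14.5 difference of 0.62 (adjusted p = 0.00721) were also called. The E13.5 call ended without atrial array 2 or 3 or any ventricular array of that age (adjusted p from 0.0754 to 0.14). At E14.5 the difference was 0.49 (adjusted p = 0.127) without the atrial arrays with high Irx4. The change with age differed between chambers by 0.85 (SE 0.20, adjusted p = 0.0125), and its second probe set gave 1.46 (adjusted p = 0.0042). Without atrial array 1 of E12.5, the lowest atrial array, the difference between chambers was 0.61 (adjusted p = 0.0519). Its rise in the atria alone, 0.45 (adjusted p = 0.0182), became 0.21 (adjusted p = 0.275) without that array and 0.40 (adjusted p = 0.0731) without atrial array 3 of E18.5. In the ventricles Col5a2 fell by 0.40 (adjusted p = 0.0292). Array 1 or 2 of E12.5 or array 1 or 3 of E18.5, left out, ended that call, with adjusted p from 0.0501 to 0.128. Col5a3, the chain of type V with the narrowest distribution in tissues, went the other way: it read 433, 297 and 432 in the E16.5 ventricles and 235, 229 and 208 in the atria, with no overlap. At E16.5 the difference of -0.73 (adjusted p = 0.0227) was no longer called without atrial array 3 or ventricular array 1 or 3 (adjusted p from 0.0706 to 0.0977). Over the ages Col5a3 was lower in atria, with a difference of -0.40 (SE 0.10, adjusted p = 0.00159), and it rose in the ventricles by 1.02 (SE 0.22, adjusted p = 0.000889).

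Among network and filament collagens the 3 main chains of type VI, the beaded filament that links basement membranes to the surrounding matrix, rose with age in both chambers. Col6a1 went from 1340.2, 1984 and 1142 to 3318, 3563 and 3281 in ventricles and from 1374, 1425 and 1795 to 3386, 3601 and 4234 in atria. Col6a2 went from 2066, 2544 and 1459 to 5240.5, 4925 and 4169 in ventricles and from 2239.8, 2364 and 3323 to 4984, 4722 and 5382 in atria. All E18.5 arrays lay above those of E12.5, and the log2 differences were 1.22 (adjusted p = 8.78e-05) and 1.28 (adjusted p = 8.38e-05) for Col6a1, and 1.26 (adjusted p = 5.38e-05) and 0.94 (adjusted p = 0.00169) for Col6a2. Col6a3, the largest of these chains, read 586, 853 and 645 in the E12.5 ventricles and 746, 981 and 1307 in the atria. At E18.5 it read 2194, 1880.5 and 1949.8 in ventricles and 3511, 4216 and 4204 in atria. The chambers overlapped at E12.5 and were apart from E14.5 on, with atria higher.

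Col6a3 rose 2.88-fold in ventricles, a log2 difference of 1.52 (SE 0.26, adjusted p = 5.67e-05), and 3.97-fold in atria, a log2 difference of 1.99 (SE 0.26, adjusted p = 5.37e-06). It was higher in atria at E18.5 by 0.98 (SE 0.26, adjusted p = 0.00704), at E16.5 by 0.94 (adjusted p = 0.0114) and at E14.5 by 0.94 (adjusted p = 0.0278). Without the atrial arrays with high Irx4 these became 0.87 (adjusted p = 0.0569) at E16.5 and 0.78 (adjusted p = 0.24) at E14.5. The E14.5 call ended without 1 of 4 arrays of that age (atrial array 1 or 3, ventricular array 2 or 3), with log2 differences from 0.78 to 1.01 and adjusted p from 0.0637 to 0.108. Over the ages the atrial excess was 0.80 (SE 0.12, adjusted p = 1.79e-06) for Col6a3, 0.28 (adjusted p = 0.0174) for Col6a2 and 0.10 (adjusted p = 0.442) for Col6a1, which did not pass the test. That of Col6a2 was 0.08 (adjusted p = 0.438) on its second probe set. It was 0.24 (adjusted p = 0.102) without the arrays with high Irx4 and 0.25 (adjusted p = 0.062) without those with high Sftpc.

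The short network chains of type VIII fell with age in the ventricles. Col8a2, a chain known from the cornea and vessels, read 212, 254 and 194 in the E14.5 ventricles and 526, 371 and 392 in the atria, and at all 5 ages the lowest atrial array was above the highest ventricular one. It was higher in atria over the ages by 0.69 (SE 0.10, adjusted p = 1.09e-06), and the called single-age differences were 0.67 (adjusted p = 0.0411) for E13.5, 0.91 (adjusted p = 0.0112) for E14.5 and 0.84 (adjusted p = 0.00688) for E16.5. Leaving out 1 array ended these single-age calls for 5 arrays at E13.5 (atrial array 1, 2 or 3, ventricular array 2 or 3; adjusted p from 0.0644 to 0.241), for atrial or ventricular array 1 at E14.5 (adjusted p from 0.0535 to 0.0587) and for atrial array 2 at E16.5, where it was 0.65 (adjusted p = 0.0597). In ventricles Col8a2 fell by 0.59 (adjusted p = 0.0412), a call lost without array 2 or 3 of E12.5 or array 1 or 2 of E18.5 (adjusted p from 0.0602 to 0.186). Its partner Col8a1 fell in the ventricles by 0.89 (adjusted p = 0.0111), lost without array 3 of E12.5 (adjusted p = 0.0765) or array 3 of E18.5 (adjusted p = 0.0512). Col7a1, the anchoring fibril chain, was called once, at E13.5 (0.86, adjusted p = 0.0321), and the call ended without atrial array 2 or 3 or any ventricular array of that age, with adjusted p from 0.0567 to 0.132. Col6a4 was called in none of the 11 comparisons.

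Basement membrane collagens fell into groups of opposite direction. The chains Col4a1 and Col4a2, which form the type IV molecule found in nearly all basement membranes, were lower in atria at E12.5. At E12.5 Col4a1 read 8114, 8348 and 8895 in ventricles and 5288, 5584 and 6718 in atria, and Col4a2 read 4957, 4960.2 and 5034 in ventricles and 2595, 3493 and 4086 in atria. Neither pair of groups overlapped, and the log2 differences were -0.53 (SE 0.11, adjusted p = 0.00178) and -0.58 (SE 0.12, adjusted p = 0.00191). At E18.5 Col4a1 read 10334, 10492 and 9547 in ventricles and 9312, 9177 and 9307 in atria, and Col4a2 read 6246, 6587 and 5580.0 in ventricles and 5809, 5899.5 and 6013 in atria. Ventricular arrays still lay above atrial ones for Col4a1 and overlapped them for Col4a2. The differences of -0.13 (adjusted p = 0.457) and -0.05 (adjusted p = 0.814) were not called and had 95% intervals of -0.35 to 0.09 and -0.29 to 0.19.

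Over the ages the atrial difference was -0.25 (adjusted p = 7.75e-05) for Col4a1 and -0.26 (adjusted p = 0.000156) for Col4a2. At E13.5 that of Col4a1 was called at -0.33 (adjusted p = 0.0401), and leaving out any 1 of the 6 arrays of that age ended the call (adjusted p from 0.0566 to 0.191). Col4a1 and Col4a2 rose with age in the atria, by 0.67 (SE 0.11, adjusted p = 5.68e-05) and 0.82 (SE 0.12, adjusted p = 1.6e-05). In the ventricles the differences of 0.26 (adjusted p = 0.0697) and 0.30 (adjusted p = 0.0577) did not pass the test. The difference between chambers in this change was 0.41 (adjusted p = 0.131) for Col4a1 and 0.53 (adjusted p = 0.0703) for Col4a2, neither of which was called. The neighbouring genes Col4a5 and Col4a6, whose chains join in another type IV molecule, were instead higher in atria. At E16.5 Col4a5 read 3671, 3355 and 2966 in ventricles and 4516, 5106 and 4619 in atria, and Col4a6 read 619.7, 522 and 486 in ventricles and 1242, 1099.7 and 1478 in atria. At E18.5 Col4a6 read 406, 385 and 467 in ventricles and 900.3, 1038 and 797 in atria. From E13.5 on, every atrial array lay above every ventricular array of its age for both genes.

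Over the ages the atrial excess was 0.36 (SE 0.04, adjusted p = 6.73e-08) for Col4a5 and 0.83 (SE 0.08, adjusted p = 4.91e-10) for Col4a6, and both were called at each age from E13.5 on. At E13.5 the call of Col4a5 ended without any 1 of that age's 6 arrays (adjusted p from 0.0599 to 0.167). At E14.5 it ended without any but atrial array 1 (adjusted p from 0.0534 to 0.142), and the call of Col4a6 ended without atrial array 2 or 3 or ventricular array 1 or 3 (adjusted p from 0.0537 to 0.166). In the ventricles Col4a6 fell by 1.08 (SE 0.17, adjusted p = 2.71e-05), and Col4a5 fell by 0.44 (SE 0.10, adjusted p = 0.000968), while in the atria the differences of -0.35 (adjusted p = 0.145) and 0.13 (adjusted p = 0.367) were not called. The change of Col4a5 differed between the chambers by 0.57 (SE 0.14, adjusted p = 0.0159), and by 0.46 (adjusted p = 0.0747) without atrial array 1 of E12.5 and 0.56 (adjusted p = 0.0586) without the arrays with high Sftpc. Its second probe set gave 0.14 (adjusted p = 0.0549) over the ages and 0.13 (adjusted p = 0.77) for the difference in change, neither called. For Col4a6 the difference in change was 0.73 (adjusted p = 0.0883), and 1.67 (adjusted p = 0.00223) on its second probe set. Col4a3, a chain of the kidney glomerulus, was called in none of the 11 comparisons.

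Col15a1 and Col18a1, the basement membrane collagens that carry cleavable anti-angiogenic fragments at their ends, moved in opposite directions with age. Col15a1 read 248, 594 and 256 in the E12.5 ventricles and 1515, 1402 and 1335 in those of E18.5. In the atria it read 307, 305 and 209.7 at E12.5 and 1027, 947 and 891 at E18.5. The ages did not overlap in either chamber. It rose 4.05-fold in ventricles, a log2 difference of 2.02 (SE 0.28, adjusted p = 4.63e-06), and 3.38-fold in atria, a log2 difference of 1.76 (SE 0.28, adjusted p = 5.31e-05). At E16.5 it read 1259, 1184 and 1302 in ventricles and 584, 609.8 and 586 in atria, with no overlap (-1.05, adjusted p = 0.0093), and over the ages the difference was -0.61 (SE 0.13, adjusted p = 0.000215). Col18a1 fell in ventricles from 5206, 4369 and 4964 to 2184, 2124 and 1558, and in atria from 4080.2, 5205 and 4712 to 2578, 3042 and 2667. The groups of each chamber did not overlap, with differences of -1.31 (SE 0.11, adjusted p = 3.69e-09) and -0.75 (SE 0.11, adjusted p = 3.03e-05). The fall was larger in the ventricles by 0.56 (SE 0.16, adjusted p = 0.0435), a call close to the threshold. It ended on leaving out any 1 of 11 arrays (arrays 1 to 3 of E10.5, array 2 of E11.5, array 1 of the E12.5 atria, arrays 1 and 3 of the E12.5 ventricles, array 3 of the E13.5 ventricles, arrays 2 and 3 of the E18.5 atria and array 3 of the E18.5 ventricles), with log2 differences from 0.41 to 0.59 and adjusted p from 0.0508 to 0.15. Its second probe set gave 0.22 (adjusted p = 0.524). Without the arrays with high Sftpc the difference was 0.59 (adjusted p = 0.0658). For Col15a1 the difference in change was not called (-0.26, adjusted p = 0.782). Of 8 endothelial and endocardial markers, 5 had a change that differed towards the atria, beside 2.66% of all probe sets. In the ventricles 1 of the markers rose and 3 fell, beside 12.7% and 16.0% of all. In the atria 2 of the markers rose and 0 fell, beside 12.6% and 11.7% of all. Their summed level at E18.5 ranged from 13897 to 14410 in ventricles and from 18605 to 20843 in atria, against 15976 to 16926 and 11804 to 17548 at E12.5. Their part in the result was not tested.

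**Figure D3:**
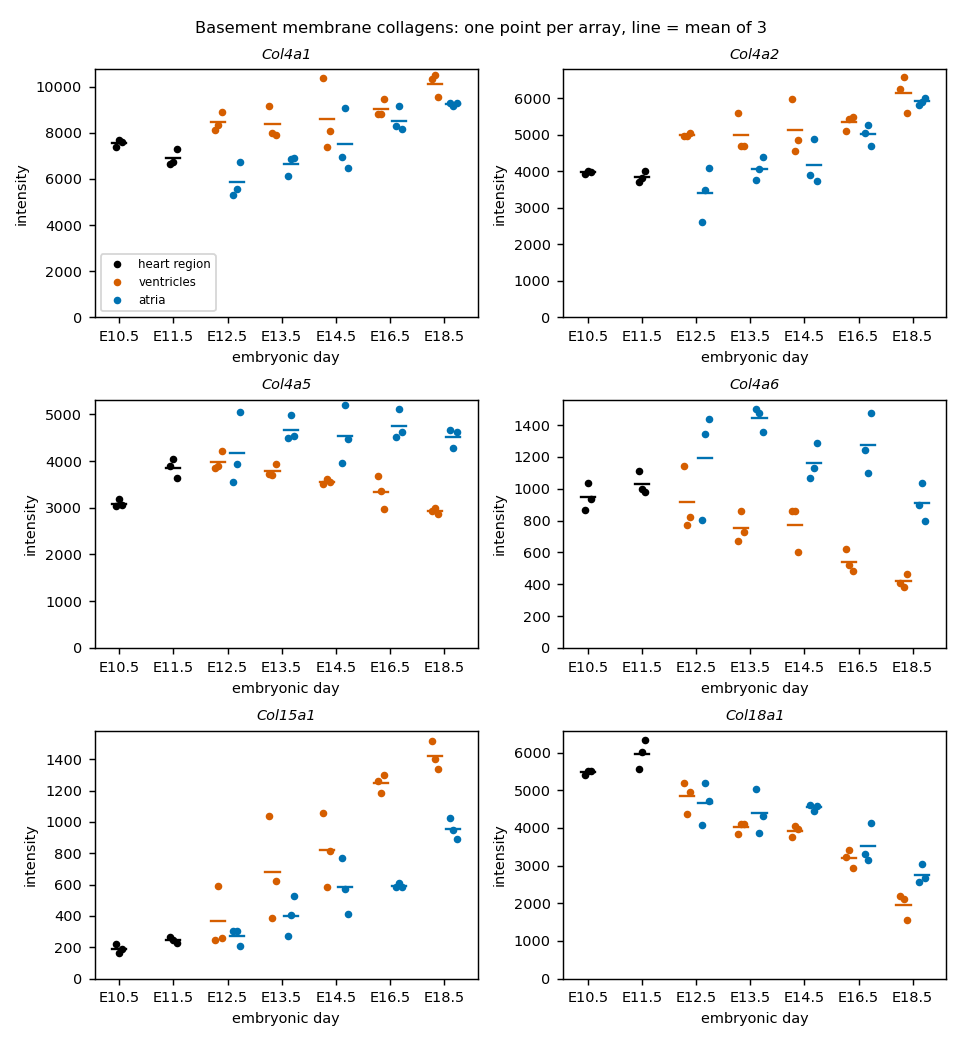
Intensity of 6 basement membrane collagen genes on each array by embryonic day, in the heart region (black), ventricles (orange) and atria (blue), with a line at the mean of the 3 arrays. Atrial points lie below ventricular ones for Col4a1 and Col4a2 at E12.5 and above them for Col4a6 at E18.5, and Col15a1 climbs while Col18a1 descends.

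The transmembrane collagens, anchored in the cell surface by 1 chain end, had 3 tested members, Col13a1, Col23a1 and Col25a1. These 3 were higher in atria over the ages, fell in the ventricles and differed between chambers in their change. Col13a1, a chain found at muscle and nerve junctions, read 799, 472 and 795 in the E12.5 ventricles and 119, 119 and 79.1 in those of E18.5, a fall with no overlap (-2.51, SE 0.32, adjusted p = 1.15e-06). In atria it read 262, 742 and 514 at E12.5 and 168, 275 and 308 at E18.5, which overlapped (-0.89, SE 0.32, adjusted p = 0.0381). At E16.5 the 2 chambers were apart, at 149, 142 and 129 against 349, 344 and 549, a difference of 1.43 (SE 0.32, adjusted p = 0.00191). At E18.5 the difference was 1.10 (adjusted p = 0.0128), with the call lost without atrial array 2 or 3 or ventricular array 3 of that age (adjusted p from 0.0547 to 0.0791) and a value of 0.94 (adjusted p = 0.0812) without the arrays with high Sftpc. Its atrial change was -0.32 (adjusted p = 0.577) without the atrial arrays with high Irx4 and -0.57 (adjusted p = 0.257) without the pair with high Alb. Leaving out single arrays, it was -0.57 (adjusted p = 0.245) without array 2 and -0.82 (adjusted p = 0.0893) without array 3 of E12.5, and -0.65 (adjusted p = 0.2) without array 1 and -0.98 (adjusted p = 0.0556) without array 2 of E18.5. The difference in change, 1.61 (adjusted p = 0.0384), lost its call when 1 of 7 arrays was left out, with log2 differences from 1.22 to 1.70 and adjusted p from 0.0602 to 0.156. These were array 1 of the E12.5 atria, arrays 1 and 3 of the E12.5 ventricles, arrays 2 and 3 of the E18.5 atria and arrays 2 and 3 of the E18.5 ventricles. For Col13a1 the ventricular arrays of E16.5 and E18.5 were all below 171.8, so that the size of differences that involve them depends on the added 17.

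Col23a1, also a transmembrane chain, read 653, 575 and 705 in the E12.5 ventricles and 479, 729.8 and 915 in the atria, which overlapped. At E18.5 it read 247, 264 and 299 in ventricles and 701, 923 and 784 in atria, and every atrial array was higher. The atrial excess was 1.51 (SE 0.20, adjusted p = 3.17e-06) at E18.5, 1.25 (adjusted p = 5.52e-05) at E16.5 and 0.98 (adjusted p = 0.00152) at E13.5. In the ventricles Col23a1 fell by 1.20 (SE 0.20, adjusted p = 5.18e-05), and in the atria the difference of 0.22 (adjusted p = 0.483) was not called. The difference in change was 1.42 (SE 0.29, adjusted p = 0.00411), was called in each alternative tried, and was 1.94 (adjusted p = 0.00115) and 2.46 (adjusted p = 0.000217) on its other probe sets. Col25a1, a chain known from neurons, read 88.7, 55.9 and 108 in the E18.5 ventricles and 244, 299 and 351 in the atria, with no overlap. The difference was 1.66 (SE 0.25, adjusted p = 1.66e-05), and the difference in change was 1.92 (SE 0.35, adjusted p = 0.00204). For Col25a1 too the ventricular arrays of E16.5 and E18.5 were all below 171.8, so that the size of differences that involve them depends on the added 17. At E16.5 the difference was 0.90 (adjusted p = 0.0116), lost without atrial array 1 or 3 of that age (adjusted p from 0.0515 to 0.0701). The rise in atria of 0.81 (adjusted p = 0.0171) was lost without atrial array 1 of E12.5 or 3 of E18.5 (adjusted p from 0.0852 to 0.098), and in ventricles Col25a1 fell by 1.10 (adjusted p = 0.00128). Its second probe set showed neither the difference at E18.5 nor that in change, at -0.33 (adjusted p = 0.646) and -0.01 (adjusted p = 0.997).

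The fibril-associated collagens outside cartilage sit on the surface of fibrils. Col14a1 rose in both chambers, from 619, 1468 and 408 to 2026, 1948 and 1945 in ventricles and from 507, 512 and 1041 to 2483, 2768 and 2893 in atria. The groups did not overlap, and the differences were 1.43 (SE 0.32, adjusted p = 0.00115) and 2.04 (SE 0.32, adjusted p = 4.39e-05). Col12a1, a chain of tendons and other tissues under load, read 302, 206 and 348 in the E18.5 ventricles and 500.5, 822 and 769.7 in the atria, apart by 1.24 (SE 0.29, adjusted p = 0.00267). It rose in atria from 257, 285 and 229 at E12.5, by 1.36 (SE 0.29, adjusted p = 0.0011), and in ventricles the difference of -0.27 (adjusted p = 0.533) was not called. The difference in change was 1.63 (adjusted p = 0.0231), and it was not called without any 1 of 5 arrays (array 1 of the E12.5 atria or ventricles, array 2 or 3 of the E18.5 atria, array 2 of the E18.5 ventricles), with log2 differences from 1.42 to 1.63 and adjusted p from 0.0566 to 0.081. Its second probe set gave 0.98 (adjusted p = 0.14) for it, 1.13 (adjusted p = 0.00236) for the rise in atria and 0.59 (adjusted p = 0.12) between chambers at E18.5. Over the ages the difference was 0.36 (adjusted p = 0.027), with the call lost without any 1 of 4 arrays (E13.5 ventricular array 2, E14.5 atrial array 1, E16.5 atrial array 2, E18.5 ventricular array 2; adjusted p from 0.0518 to 0.0574) and at 0.18 (adjusted p = 0.22) without the arrays with high Irx4. The call at E16.5, 0.83 (adjusted p = 0.0493), ended when 1 of 27 of the 36 arrays was left out (adjusted p from 0.0504 to 0.269).

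Col16a1 read 581, 693 and 527 in the E12.5 ventricles and 315, 299 and 262 in those of E18.5, with no overlap (-0.99, SE 0.21, adjusted p = 0.000725). In atria it read 437, 760.4 and 784 at E12.5 and 663, 807 and 698 at E18.5, which overlapped (0.17, adjusted p = 0.62). At E18.5 every atrial array exceeded every ventricular one, by 1.26 (SE 0.21, adjusted p = 7.41e-05). The difference in change, 1.16 (adjusted p = 0.0259), ended when 1 of 7 arrays was left out (array 1 of the E12.5 atria, arrays 1 and 2 of the E12.5 ventricles, arrays 2 and 3 of the E18.5 atria and of the E18.5 ventricles), with adjusted p up to 0.113 without atrial array 1 of E12.5, where its value was 0.89. Col22a1, a chain of tissue junctions, was called in none of the 11 comparisons. Of 8 fibroblast markers 6 rose and 1 fell with age in the ventricles, beside 12.7% and 16.0% of all probe sets. In the atria 5 rose and 1 fell, beside 12.6% and 11.7% of all. Over the ages 5 of these markers were higher and 1 lower in atria, beside 20.9% and 21.5% of all. Their summed level ranged from 13912 to 19077 in the E12.5 ventricles and from 27538 to 30275 in those of E18.5, and from 14858 to 23199 and 31976 to 35779 in the atria. Of 6 epicardial markers 5 were higher in atria over the ages, beside 20.9% of all probe sets. The change of 1 epicardial marker was called lower in atria than in ventricles, beside 1.12% of all. Their summed level ranged from 5383 to 7083 in ventricles and from 11289 to 12873 in atria at E12.5, and from 4786 to 4796 and 9632 to 11224 at E18.5. Of 7 cushion and valve markers 2 were higher and 2 lower in atria over the ages, shares near the 20.9% and 21.5% of all probe sets. The part of these 3 lists in the result was not tested.

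**Figure D4:**
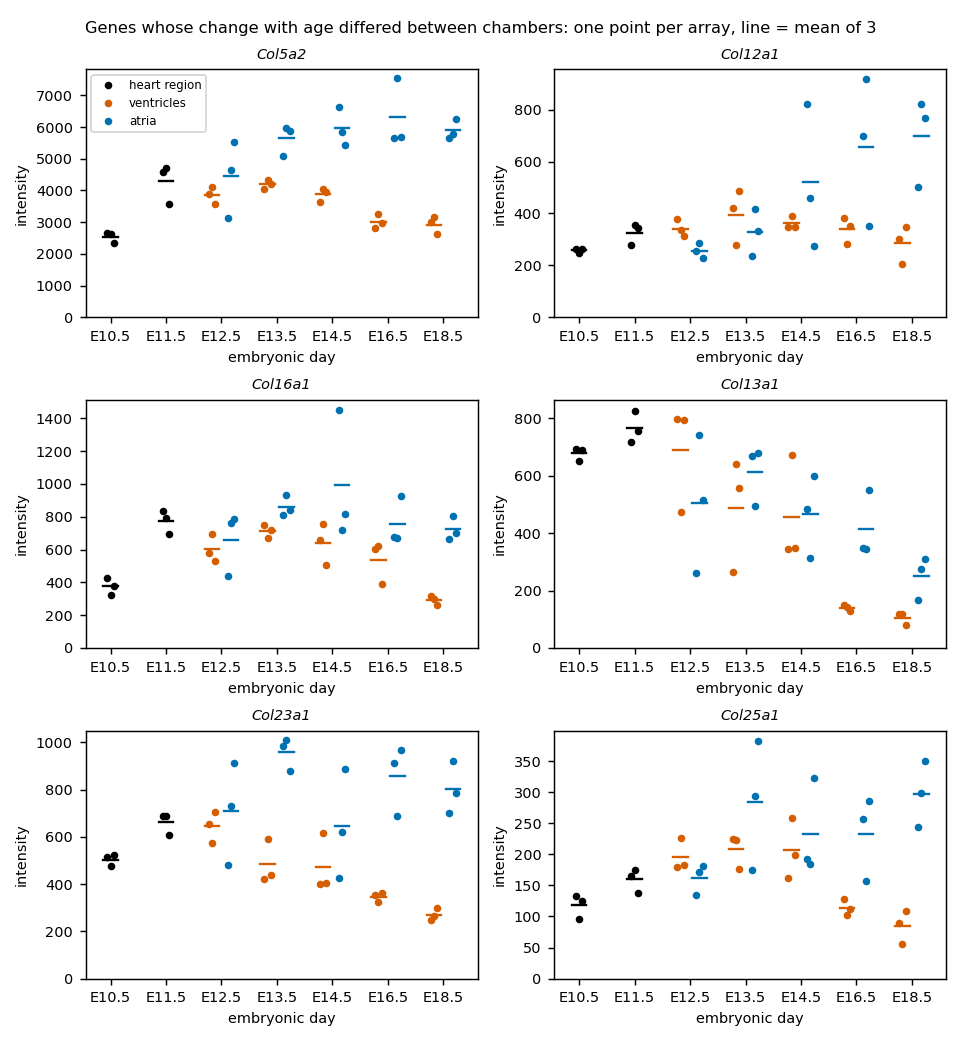
Intensity of 6 of the 8 collagen genes whose change from E12.5 to E18.5 differed between chambers, on each array by embryonic day, with colours and mean lines as in the plot of basement membrane genes. At E18.5 every atrial array lies above every ventricular array in each of the 6 panels, whereas at E12.5 the chambers overlap in all but Col12a1, whose atrial arrays lie lower.

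The cartilage collagens Col2a1, the chain of type II, and Col9a1, a chain of the type IX collagen on type II fibrils, had their highest group means before the chambers were separated and fell with age in both. Col2a1 read 3177, 3340.1 and 3591 at E10.5 and 1879, 1388 and 2048 at E11.5. In the ventricles it read 1522, 321 and 2237 at E12.5 and 100.5, 54.7 and 79 at E18.5, a fall on the log2(intensity + 17) scale (-3.50, SE 0.63, adjusted p = 0.000111). In the atria it read 615, 604 and 296 and 123, 115 and 61, also a fall (-2.14, SE 0.63, adjusted p = 0.0129). The ages did not overlap in either chamber. All 6 arrays of E18.5 were below 171.8, so that the size of these falls depends on the added 17. The atrial fall was -1.96 (adjusted p = 0.0641) without atrial array 1 of E12.5 and -1.87 (adjusted p = 0.0639) without atrial array 3 of E18.5. It was -1.87 (adjusted p = 0.0711) without the arrays with high Sftpc and -1.98 (adjusted p = 0.0545) without the pair with high Alb. The array of the E12.5 ventricles that was low in Col2a1, array 2, was also low in Hapln1, a link protein of cartilage and cushion matrix (593, 198 and 776 on the 3 arrays). Other cartilage genes did not all follow: Acan differed little (142, 134 and 141), and Matn3 (113, 151 and 200) and Sox5 (115, 139 and 118) were not lowest there.

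Col9a1 read 2169, 2089 and 1516 at E11.5, then 419.9, 85.3 and 598 in ventricles and 584, 953 and 328 in atria at E12.5. By E18.5 it read 104, 20.2 and 113 in ventricles, which overlapped E12.5, and 118, 126 and 65.2 in atria, which did not. The differences were -1.85 (SE 0.55, adjusted p = 0.0113) in ventricles and -2.33 (SE 0.55, adjusted p = 0.00242) in atria. The ventricular fall lost its call without array 1 or 3 of E12.5 or array 2 of E18.5, with log2 differences from -1.58 to -1.27 and adjusted p from 0.0647 to 0.116. At E14.5 the atria read 2305, 481 and 857 against 142, 353 and 179 in ventricles, with no overlap, a difference of 2.15 (SE 0.55, adjusted p = 0.017). Without atrial array 1, by far the highest, it was 1.55 (adjusted p = 0.11), without atrial array 3 it was 2.25 (adjusted p = 0.0526), and without ventricular array 1 it was 1.90 (adjusted p = 0.108). That atrial array also held Acan at 465 against 172 and 113 on the others, and Col9a3 at 476 against 33.4 and 26.4. Of the tested cartilage markers, Matn3 (123.7 against 103.2 and 210.5) and Comp (144.3 against 211.5 and 187.0) were not highest on it. All cushion and valve markers but Tbx20 were highest there too, with Sox9 at 715 against 341 and 352 and Twist1 at 746 against 182 and 291. Over the ages Col9a1 was higher in atria by 1.12 (SE 0.25, adjusted p = 0.000439), but its second probe set gave 0.06 (adjusted p = 0.679), and also -0.29 (adjusted p = 0.372) and -0.47 (adjusted p = 0.143) for the change in ventricles and atria, none of them called. Without the arrays with high Irx4 the E14.5 difference was 1.95 (adjusted p = 0.097).

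Of the list of other cartilage genes, 10 of 10 markers had a probe set and 7 were tested. Over the ages 4 were higher in atria, beside 20.9% of all probe sets. Matn1, Cnmd and Snorc were not tested and stayed below 171.8 on all arrays, whereas the 7 tested genes exceeded it on 3 or more arrays. The summed level of the list ranged from 4129 to 4873 at E10.5, from 1315 to 2208 in the E12.5 ventricles and from 1109 to 1482 in those of E18.5. In the atria it ranged from 1500 to 2214 at E12.5 and from 1577 to 1932 at E18.5. Their part in the result was not tested. Col11a1 and Col27a1, fibril chains of cartilage, were above 171.8 on all 36 arrays and were called in none of the 11 comparisons. Col26a1, which lies outside the main classes, fell from 635, 537 and 580.1 to 212, 215 and 185 in ventricles (-1.44, SE 0.21, adjusted p = 8.55e-06) and from 564, 919.7 and 720.1 to 138, 147 and 104 in atria (-2.35, SE 0.21, adjusted p = 1.98e-08), with no overlap. At E18.5 the difference between atria and ventricles was -0.60 (adjusted p = 0.042), with a call that ended when atrial array 1 or 3 or ventricular array 1, 2 or 3 of that age was left out (adjusted p from 0.0549 to 0.206).

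**Figure D5:**
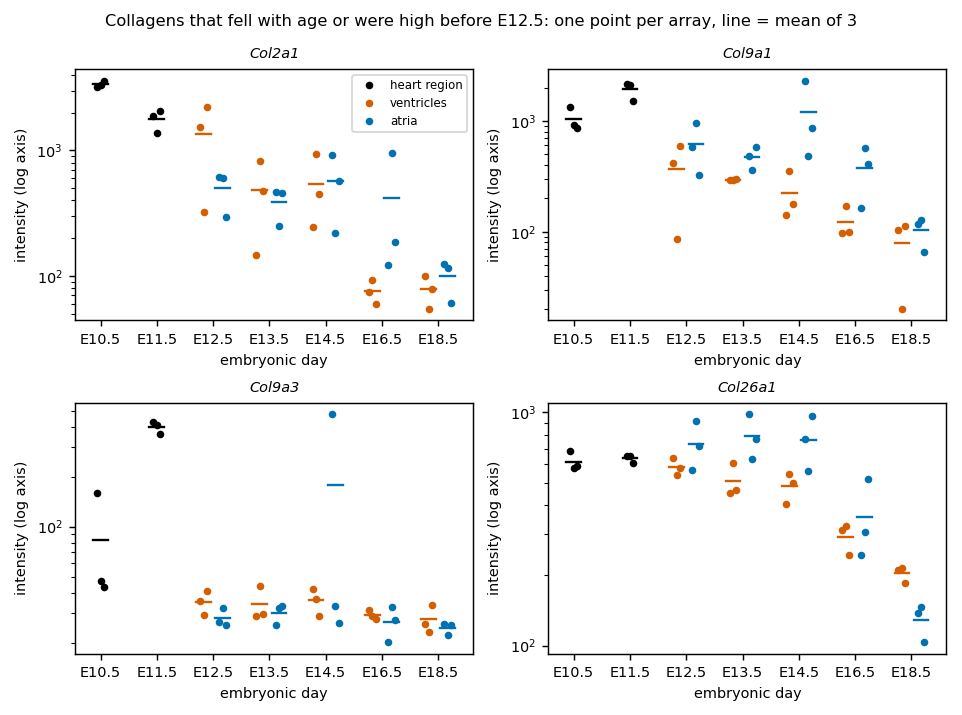
Intensity on a log axis of Col2a1, Col9a1, Col9a3 and Col26a1 on each array by embryonic day, with a line at the mean of the 3 arrays. Col9a3 is high at E11.5 and on 1 atrial array of E14.5, and Col2a1 falls from between 3177 and 3591 at E10.5 to between 54.7 and 123 at E18.5.

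Between E10.5 and E11.5 collagen genes of several classes rose in the heart region. By limma, 5 of 33 collagen genes rose, where 0.928% of all probe sets did, 0.227% fell and 1.16% were called in either direction. None was called lower by limma, and at an unadjusted p below 0.05 there were 13 higher and 0 lower. The median log2 difference was 0.35, beside 0.01 for all probe sets. Col5a2 read 2666, 2619 and 2352 at E10.5 and 4589, 4722 and 3577 at E11.5 (0.74, SE 0.14, adjusted p = 0.00443). Col6a3 read 333, 315 and 269 and then 820.2, 892 and 562 (1.24, SE 0.26, adjusted p = 0.0115). Col16a1 read 429, 324 and 379.9 and then 836, 794 and 696 (1.01, SE 0.21, adjusted p = 0.012), and Col1a2 4645, 3951 and 3882 and then 7116, 7375 and 5406 (0.66, SE 0.17, adjusted p = 0.0399). Col9a3, a second chain of type IX, read 159, 46.8 and 43.5 and then 428, 408 and 362 (2.24, SE 0.52, adjusted p = 0.0249). It was above 171.8 on 4 arrays, all those of E11.5 and 1 of the E14.5 atria. Col9a3 thus passed the filter through the group where it is high, and its call and place among the 5 are not independent of that choice. In each of the 5 genes the 2 ages did not overlap, but each call was lost on leaving out some single array. The count of 5 became 2 without array 2 and 0 without array 3 of E10.5, and 1 without array 1 and 0 without array 2 of E11.5; where it became 0, 11 and 10 collagen genes had an unadjusted p below 0.05.

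At the step from the E11.5 heart region to the chambers of E12.5 both tested type IX genes were lower. Col9a3 fell from 428, 408 and 362 to 35.8, 29.4 and 40.8 in ventricles and 26.6, 32.2 and 25.5 in atria, with a difference for the mean of both of -3.10 (SE 0.45, adjusted p = 0.000335). The chamber values lay far below 171.8, so that its size depends on the added 17. Col9a3 also passed the filter only through its high values at E11.5, so that its call and place in the count are not independent of that choice. For Col9a1 the difference was -2.19 (SE 0.47, adjusted p = 0.0193), and -2.10 (adjusted p = 0.116), -2.12 (adjusted p = 0.11) and -2.35 (adjusted p = 0.0615) without arrays 1, 2 and 3 of E11.5. Second probe sets of both genes were also called lower. These were 2 of 33 collagen genes, where 0.664% of all probe sets were lower, 0.271% higher and 0.936% either. None was called higher by limma, and at an unadjusted p below 0.05 there were 2 higher and 5 lower. The median was 0.00 beside 0.01 for all. The dissection also changed at this step, from a piece of the embryo with the heart to the heart alone, so that age and dissection cannot be told apart. Of 7 cushion and valve markers 3 were lower after this step, and the list summed to between 16604 and 18794 at E11.5, 12144 and 13108 in the E12.5 ventricles, and 9285 and 11119 in the E12.5 atria. Of the 7 tested cartilage genes 1 was lower, with sums from 3201 to 3356, from 1315 to 2208 and from 1500 to 2214 in these groups. Of 4 tested markers of somite and skeletal muscle 1 was lower, with sums from 848 to 1073, from 594 to 916 and from 469 to 796. The 5 neural markers summed to between 631 and 777, 575 and 742, and 483 and 612. Their part in the result was not tested.

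Of the 9 genes that were not tested, 3 were above 171.8 on any array. Col20a1, a fibril-associated chain, was so on 2 arrays and ranged from 15.4 to 230.4 over ventricular arrays and from 81 to 181 over atrial arrays. At E12.5 it read 42.1, 39.1 and 52.5 in ventricles and 130.2, 140.1 and 148 in atria, also with no overlap. Col4a4, a partner of Col4a3, and Col9a2, the remaining chain of type IX, were so on 1 array each, with highest values of 211.4 and 184.1. Col24a1, a minor fibrillar chain, read 53.4, 29.8 and 52.6 in the E18.5 ventricles and 102, 108 and 134 in the atria, with no overlap. The highest value on any array was 148.0 for Col24a1, 119.9 for Col19a1, 112.2 for Col11a2, 93.3 for Col6a5, 87.4 for Col17a1, the transmembrane chain of the skin's anchoring structures, and 55.3 for Col10a1, the collagen of growth plate cartilage. None of these differences was tested. Another probe set of Col20a1 passed the filter and was higher in atria over the ages, at 0.40 (adjusted p = 0.0415).

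Genes that make, bind or break down collagen were followed as 3 lists. Of 30 genes for making and processing, 24 were tested, and 11 were higher and 2 lower in atria over the ages, where 20.9% and 21.5% of all probe sets were. Lox (1.15, adjusted p = 1.63e-08) and Loxl1 (0.73, adjusted p = 3.59e-10), which cross-link collagen, Tll1 (0.89, adjusted p = 2.2e-06), a procollagen protease, and P3h1 (0.72, adjusted p = 2.38e-08), a prolyl 3-hydroxylase, had the largest excess. P3h2 (-0.55, adjusted p = 8.28e-06), the prolyl 3-hydroxylase known to act on type IV collagen, and Plod1 (-0.12, adjusted p = 0.0292), a lysyl hydroxylase, were lower. With age 2 rose and 5 fell in the ventricles, a share near that of all probe sets, of which 12.7% rose and 16.0% fell. There P3h2 fell by 1.41 (adjusted p = 4.44e-06) and Pcolce, an enhancer of procollagen cleavage, rose by 0.67 (adjusted p = 8.27e-05). In the atria 7 rose, where 12.6% of all probe sets did, led by Tll1 (1.46, adjusted p = 0.000562) and Lox (0.85, adjusted p = 0.0284). Lox was also higher at E11.5 than at E10.5, by 1.96 (adjusted p = 0.000315).

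Of 7 collagen receptors, 5 were tested, and 2 were higher and 1 lower in atria, against the same 20.9% and 21.5% of all probe sets. Ddr2, the fibrillar collagen receptor of mesenchymal cells, was higher in atria by 0.79 (adjusted p = 5.61e-06) and Itga10 by 0.30 (adjusted p = 0.0165), while the integrin chain Itga1 was lower, at -0.26 (adjusted p = 0.000148). Ddr2 (0.95, adjusted p = 0.00965) and Itga1 (0.31, adjusted p = 0.0386) rose with age in the ventricles. Of 10 genes of collagen breakdown, 9 were tested, 5 were higher in atria and 2 lower, the latter share being near the 21.5% of all probe sets (20.9% were higher). The uptake receptor Mrc2 (0.58, adjusted p = 2.42e-05), the membrane collagenase Mmp14 (0.45, adjusted p = 7.25e-09) and the inhibitors Timp3 (0.39, adjusted p = 3.56e-05) and Timp2 (0.32, adjusted p = 2.25e-05) were higher, and Mmp9 (-0.33, adjusted p = 0.027) and Mmp8 (-0.28, adjusted p = 0.0425) lower. The change of Timp1 with age differed between chambers by 0.72 (adjusted p = 0.0257). The median difference over the ages was 0.11 for making and processing, 0.01 for receptors and 0.31 for breakdown, beside -0.01 for all probe sets.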

How the data were processed

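Total RNA of 36 samples was measured on 1-colour Affymetrix 430 2.0 arrays. The deposited values, per the file headers and the values themselves, are intensities per probe set on a linear scale with a 2% trimmed mean of 500 on every array; for the software that made them, the name and version are not given in the sources. Of 45101 probe sets, 64 controls were left out, and 34945 carried 1 gene symbol, 932 several and 9160 none.

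Intensities were taken as log2(intensity + 17), the added value being 10% of the overall median. Group means of all 12 groups were fitted with limma 3.58.1 in R 4.3.3 (empirical Bayes with an intensity trend) to the 27256 probe sets above 171.8 on at least 3 arrays. Each of 11 comparisons was tested 2-sided, with Benjamini-Hochberg adjustment over those probe sets and a threshold of 0.05. The change in atria minus that in ventricles was 1 of these comparisons. Tables and figures were made with Python 3.11.15, pandas 2.3.3, numpy 2.4.6 and matplotlib 3.10.9. The fit was also tested on data simulated from the probe set means and the spread that it had estimated.

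Each collagen gene was described by its brightest probe set on average, and others of the same gene are given for some results only. Over the 5 ages, 13 called genes had another tested probe set, and for 7 of them another was called the same way. These counts were 5 and 1 at E13.5, 4 and 2 at E14.5, 6 and 3 at E16.5, and 7 and 3 at E18.5. They were 13 and 8 for age in the ventricles, 10 and 6 in the atria, and 6 and 2 for the difference in change. In no comparison was another probe set called the opposite way. All members are named; pathway genes are named up to 4 per direction by size of the called difference. The members, classes and lists were chosen with earlier results of these data known. Alternatives were another pseudocount, filter, normalization, weighting, set of samples, variance trend or probe set, a replicate block, and each array left out in turn.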

Additional observations from a re-analysis of the deposited data

Results flagged for a closer look

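For 8 collagen genes the change with age, E18.5 against E12.5, differed between the chambers by the test of that difference in limma, with Benjamini-Hochberg adjustment. The change in atria minus that in ventricles, on the log2 scale, was 1.92 for Col25a1, 1.63 for Col12a1, 1.61 for Col13a1, 1.42 for Col23a1, 1.16 for Col16a1, 0.85 for Col5a2, 0.57 for Col4a5 and 0.56 for Col18a1. The call of Col23a1 held under every alternative tried. That of Col25a1 held on leaving out any 1 array but not on its second probe set, where the value was -0.01. The other 6 calls each ended on leaving out some single array.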

How the results depend on the processing

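The mean over 5 ages and both changes with age kept their counts of called collagen genes within 1.5 times under each alternative, except 27 in place of 17 for the change in atria with array weights. Leaving out 1 array gave 19 to 21 for the mean, 19 to 25 for ventricles and 14 to 18 for atria.

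Counts at single ages and for the early steps moved more. With array weights there were 10 calls at E12.5, 2 at E14.5, 14 for the difference between chambers in the change, 12 for E11.5 against E10.5 and 4 for E12.5 against E11.5. Fitting only the compared groups gave 0 at E12.5 and at E14.5 in limma (6 and 12 at an unadjusted p below 0.05), 3, 15 and 1. Median centring gave 4 at E13.5, 3 for the difference in change and 2 for E11.5 against E10.5. At E13.5 quantile normalization gave 4, no intensity trend 4 and no filter 2. No chosen probe set ended in _s_at or _x_at, so leaving such probe sets out changed nothing. A strict filter gave 1 for E12.5 against E11.5. Among alternatives chosen after seeing the data, leaving out the atrial arrays with high Sftpc gave 2 at E13.5 and 4 for the difference in change, those with high Irx4 gave 3 at E14.5 and 7 at E16.5, and the pair with high Alb gave 4 at E13.5. The cause was not tested, beyond the fewer samples that some of these fits use.

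Leaving out 1 array gave 2 to 4 at E12.5, 2 to 9 at E13.5, 2 to 9 at E14.5, 9 to 12 at E16.5, 9 to 12 at E18.5, 2 to 11 for the difference in change, 0 to 6 for E11.5 against E10.5 and 1 to 2 for E12.5 against E11.5. On second probe sets, also chosen after seeing the data, the sign turned for Col5a1 over the ages (0.19) and for Col25a1 at E18.5 (-0.33), in the ventricles with age (0.34) and in the difference in change (-0.01, computed as -0.008); the cause was not tested. Deviations of same-numbered atrial and ventricular arrays of an age had correlations from -0.335 to 0.159, most of them negative. Differently numbered arrays had correlations from -0.239 to 0.311. Arrays of the same number thus did not deviate together, and the numbers were not taken to pair the samples. With a replicate block the counts were 20 over the ages, 6 at E13.5, 10 at E16.5, 10 at E18.5 and 7 for the difference in change.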
